A study of Mus musculus with 12 samples.

Results

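TLR4 is the receptor through which lipopolysaccharide, and the synthetic lipid A analog GLA, signals. The transcripts of this receptor, of its accessory proteins and of its signaling adaptors were examined in A20 tumors after intratumoral injection. The 9 genes were picked by symbol and function, with earlier results of these data known. They are the receptor complex (Tlr4, Ly96 and Cd14), the related receptor pair Cd180 and Ly86, and the adaptors Myd88, Tirap, Ticam1 and Ticam2. They make up 9 of the 770 genes of a mouse immuno-oncology panel (nCounter PanCancer Immune Profiling), an assay that counts color-coded probes bound to each transcript, and all 9 are among the 750 genes tested, which leave out the 20 reference genes. Female Balb/c mice received 5000000 A20 cells, a B-cell lymphoma line of that strain, under the skin, and injections into the tumor began about 7 days later. The mice were assigned at random to PBS, to GLA-SE (10 µg GLA in 50 µl of 2% SE, called G100 by the investigators) or to SE, the stable oil-in-water emulsion without GLA, with 4 tumors in each group. The sample labels do not give the volume of the PBS and SE injections or the emulsion concentration of the SE group. Every tumor was injected 3 times, on alternate days, and was collected 2 h after the last injection. All 12 tumors therefore shared the cell line, the host strain, the handling and the needle injection, and the PBS tumors were injected controls and not untouched tissue. Each tumor was measured whole, so that lymphoma cells and host cells contributed to the same count, and a change in the number of cells of a type cannot be told apart from a change in RNA per cell.

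As background, LBP hands lipid A to CD14, which passes it on to MD-2, the small secreted protein encoded by Ly96, and MD-2 bound to TLR4 lets paired receptors form. At the cell surface TLR4 recruits TIRAP and MyD88, a route that leads to NF-κB and inflammatory cytokines, and after uptake into endosomes, which depends on CD14, it recruits TRAM (Ticam2) and TRIF (Ticam1), a route that leads to IRF3 and type I interferon. CD180 (RP105) resembles the outer part of TLR4 but lacks its signaling domain, pairs with MD-1 (Ly86) as TLR4 pairs with MD-2, and is best known from B cells. Monocytes, macrophages and neutrophils carry most CD14, whereas mouse B cells express TLR4 and CD180.

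The promoters of 5 of the 9 genes were taken from RefSeq, and those of Tlr4, Ly96, Cd14 and Ticam2 are not reported here. Shown are the promoters of Myd88 and Ticam1, the adaptors that rose, and of the related receptor pair, of which 1 gene rose and the other did not pass. They were picked with these expression results known, and no expression result rests on these promoters. Each runs 5′ to 3′ on the strand of the gene, from 250 bases before to 50 bases after the annotated start, in build GRCm38.p6. Capitals mark a match to any of 4 searched motifs, an NF-κB type (GGGA and CC separated by any 4 bases), an interferon-stimulated response element type (GAAA and GAAA separated by any 2 bases), a PU.1 type (GAGGAA) and an AP-1 type (TGANTCA), each searched on both strands.
Myd88, chr9:119339969-119340268, minus strand: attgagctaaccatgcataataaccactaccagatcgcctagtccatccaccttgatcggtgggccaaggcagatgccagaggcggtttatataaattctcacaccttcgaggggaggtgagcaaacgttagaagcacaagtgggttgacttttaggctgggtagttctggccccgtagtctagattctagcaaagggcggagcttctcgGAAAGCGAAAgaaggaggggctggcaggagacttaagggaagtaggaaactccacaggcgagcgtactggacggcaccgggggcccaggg
Ticam1, chr17:56276718-56277017, minus strand: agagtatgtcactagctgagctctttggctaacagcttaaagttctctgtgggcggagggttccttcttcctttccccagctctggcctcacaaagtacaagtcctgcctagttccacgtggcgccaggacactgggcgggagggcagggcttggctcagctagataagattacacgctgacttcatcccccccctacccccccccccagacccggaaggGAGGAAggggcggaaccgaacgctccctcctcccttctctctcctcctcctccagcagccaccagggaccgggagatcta
Cd180, chr13:102693297-102693596, plus strand: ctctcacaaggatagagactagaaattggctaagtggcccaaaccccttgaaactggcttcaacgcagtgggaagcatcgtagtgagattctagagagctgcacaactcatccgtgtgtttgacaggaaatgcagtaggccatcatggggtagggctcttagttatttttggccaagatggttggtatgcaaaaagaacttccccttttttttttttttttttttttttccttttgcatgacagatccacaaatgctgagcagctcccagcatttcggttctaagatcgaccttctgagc
Ly86, chr13:37345095-37345394, plus strand: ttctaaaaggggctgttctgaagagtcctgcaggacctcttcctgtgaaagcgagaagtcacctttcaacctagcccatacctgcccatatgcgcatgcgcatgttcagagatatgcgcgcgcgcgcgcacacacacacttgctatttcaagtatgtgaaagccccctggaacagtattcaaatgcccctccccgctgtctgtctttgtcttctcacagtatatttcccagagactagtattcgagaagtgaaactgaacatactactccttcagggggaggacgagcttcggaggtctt

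The Myd88 window held a match to the interferon-stimulated response element type, GAAAGCGAAA, at position -40 from the start. Such a match was present in 3.44% of 32851 mouse promoters of the same length. The Ticam1 window held the PU.1 type letters at position -30, which 28.3% of promoters held, and the Cd180 and Ly86 windows held none of the 4 motifs. Cd180 has 2 annotated starts, of which the first is shown, and neither window held a match. A 5th gene, Tirap, also has 2 annotated starts. The window of one held an NF-κB type match on the opposite strand at position 4, a motif found in 20.7% of promoters, and the window of the other held none of the 4 motifs. The AP-1 type was held by 7.81% of promoters. These are matches of letters only, and no binding was measured.

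The total count per tumor was 810260 to 1612415, and every gene of interest was counted at least 106 times in every tumor, so that the spread between tumors and not the count limited precision. Values below are reference-scaled counts, the deposited counts divided by each tumor's level of 17 stable reference genes. The tissue was checked against 8 B-cell markers. All 8 were detected in every tumor, with mean scaled counts in PBS tumors of 8983 for Ms4a1 (CD20) and 6424 for Cd79b, and the sum of all 8 was 18430 to 21740 in PBS, 12990 to 21380 in SE and 14970 to 17320 in GLA-SE tumors. Myeloid markers were detected as well. The sum of 8 monocyte and macrophage markers was 2899 to 4340 in PBS and 9300 to 13170 in GLA-SE tumors, and in the SE tumors it was 2912, 2351, 11830 and 18620 in replicates 1 to 4. The SE group was thus uneven, with replicates 3 and 4 far above replicates 1 and 2. Replicate 4 of SE also had the lowest reference gene level (geometric mean 1011 counts, against 1647 to 3077 in the other SE tumors). GLA-SE replicate 3 had a neutrophil marker sum of 9081, of which S100a8 gave 7682, where the other GLA-SE tumors had 851.9 to 2247. Values that moved by over 1.5-fold without either of these tumors are given with and without it.

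**Figure D1:**
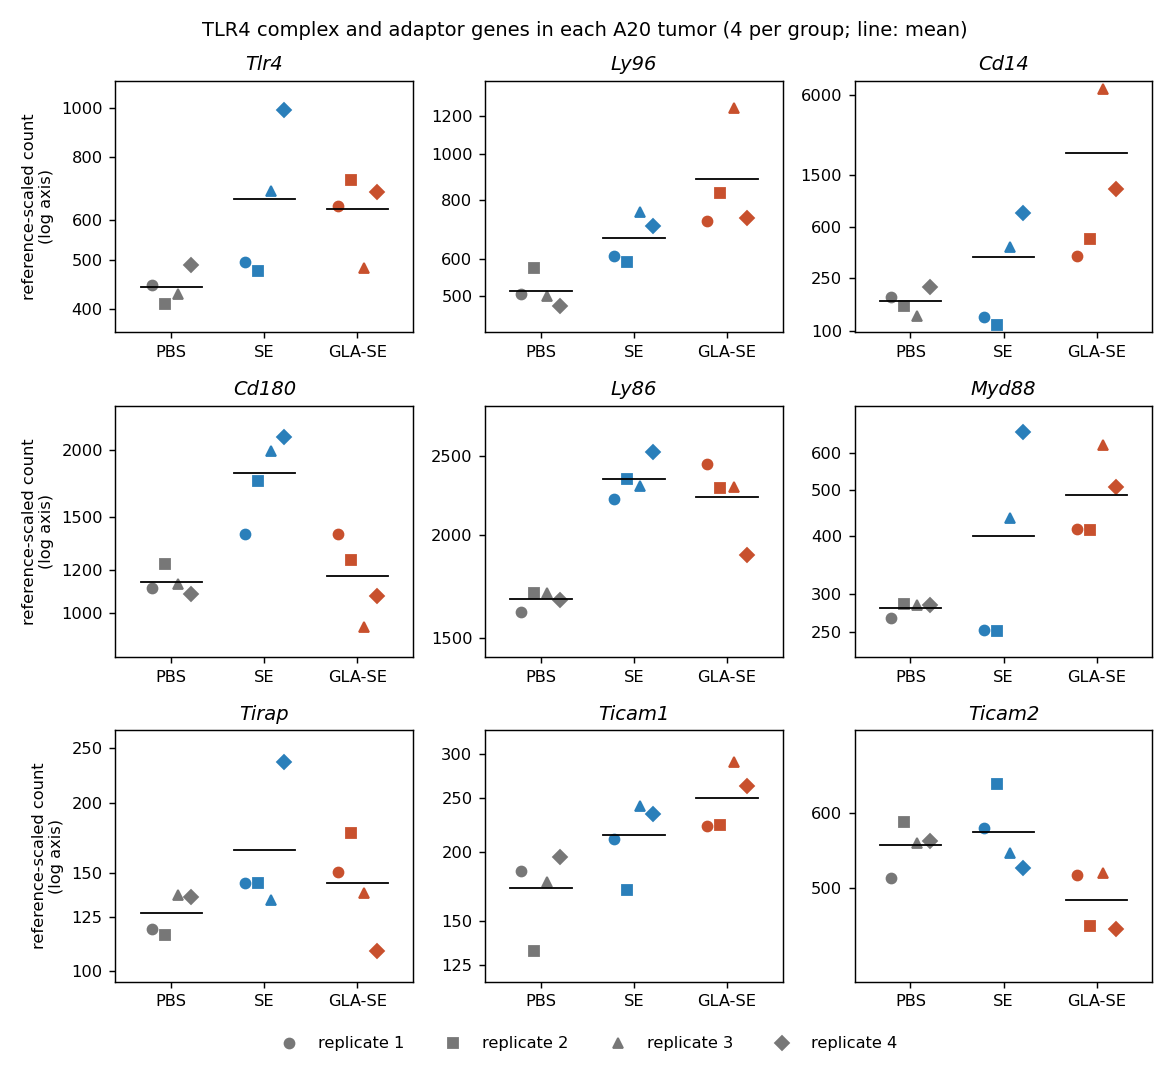
Reference-scaled counts (log axes, a separate range for each gene) of the 9 genes in each of the 12 tumors, with PBS in grey, SE in blue and GLA-SE in orange; symbols give the replicate and the horizontal line the mean of 4 tumors. In PBS tumors Myd88 and Ly86 vary least, SE replicates 3 and 4 lie highest in their group for Tlr4, Cd14, Cd180 and Myd88, and Cd14 in GLA-SE replicate 3 reaches 6698.

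The question of the main comparison was how the receptor's own machinery stood in tumors that had received its agonist. Relative to the reference genes, 6 of the 9 transcripts rose in GLA-SE against PBS tumors (Tlr4, Ly96, Cd14, Ly86, Myd88 and Ticam1), 0 fell, and Cd180, Tirap and Ticam2 did not pass (edgeR's quasi-likelihood test, Benjamini-Hochberg adjusted p under 0.05 over 750 genes). This is near the share of the whole panel, in which 68.3% of tested genes rose and 0.4% fell. The median log2 fold change was 0.51 over the 9 genes and 0.89 over the 750 tested, and relative to the panel's median 7 of the 9 stood at -0.11 or lower and Myd88 at -0.09. Cd14 alone lay above it, at 2.80. The directions depend on the scale. When each tumor was instead scaled to the median of the panel, all 9 passed, with Cd14 higher and the other 8 lower, and the panel's own median log2 fold change was then -0.40. On that scale 61 of the 750 genes passed as higher and 307 as lower.

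**Figure D2:**
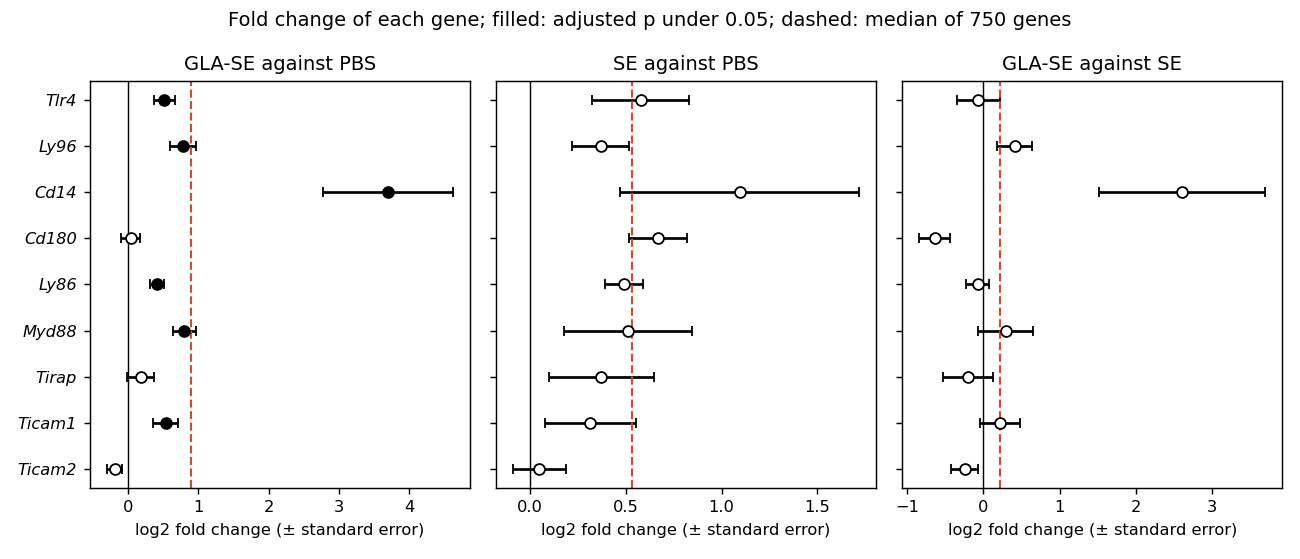
Log2 fold change (± standard error, from edgeR) of each gene in the 3 comparisons, 4 tumors per group, relative to the reference genes. Filled points have an adjusted p under 0.05 and the dashed line is the median of the 750 tested genes (0.89, 0.53 and 0.22); in GLA-SE against PBS only Cd14 lies to the right of it, and with scaling to the panel median the 8 other genes lie below 0.

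Tlr4, the signaling receptor, had 446.5, 409.5, 428.7 and 489.2 scaled counts in the PBS tumors. The GLA-SE tumors had 641.8, 721.7, 482.5 and 684.2, and the SE tumors 495.5, 475.9, 684.5 and 993.4. Replicate 3 of GLA-SE fell within the PBS range and the other 3 GLA-SE tumors lay above it. The log2 fold change of GLA-SE against PBS was 0.51 (standard error 0.148, edgeR adjusted p = 0.0138), and 0.62 without GLA-SE replicate 3, while an exact permutation test over tumors gave p = 0.0571 (two-sided). Two-sided exact p-values of 4 against 4 tumors cannot go below 0.0286. With all 12 tumors in a single fit, where the uneven SE group enters the error, the adjusted p from edgeR was 0.104.

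Ly96 (MD-2) had 504.9, 572.2, 501.0 and 476.5 scaled counts in PBS tumors, 608.5, 589.4, 751.9 and 702.3 in SE tumors and 720.8, 827.6, 1250 and 733.1 in GLA-SE tumors. The PBS range lay below every tumor of both other groups. The log2 fold change of GLA-SE against PBS was 0.78 (standard error 0.188, edgeR adjusted p = 0.00673), and 0.57 without GLA-SE replicate 3, the highest tumor. It passed in all 8 fits that dropped a single tumor, and with all 12 tumors in a single fit (edgeR adjusted p = 0.0119).

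Cd14, the co-receptor that delivers lipid A, had the largest log2 fold change of the 9. PBS tumors had 179.0, 153.3, 129.3 and 211.3 scaled counts and GLA-SE tumors 367.2, 489.1, 6698 and 1161, with no overlap. The 4 GLA-SE tumors spanned 18.2-fold among themselves, against 1.63-fold in PBS tumors. Against PBS the log2 fold change was 3.69 (standard error 0.927, edgeR adjusted p = 0.00775), rank 10 of 750 genes, and it was 2.00 (edgeR adjusted p = 0.00218) without GLA-SE replicate 3. SE tumors had 125.7, 110.4, 429.7 and 775.6, so that replicates 1 and 2 lay below all PBS tumors and replicates 3 and 4 above them. Sums of neutrophil and macrophage markers were also highest in replicate 3 of GLA-SE and in replicates 3 and 4 of SE. The macrophage sum was 9300, 11300, 13170 and 10170 in GLA-SE replicates 1 to 4, a far narrower range than that of Cd14. The neutrophil marker sum (8 genes, of which none was at 0 but 4 averaged under 20 counts in PBS tumors) was 229.5 to 277.9 in PBS tumors, 851.9, 1118, 9081 and 2247 in GLA-SE replicates 1 to 4 and 231.4, 243.7, 709.5 and 1305 in SE replicates 1 to 4. In GLA-SE replicate 3, S100a8 alone had 7682 of the 9081. Of the 8 neutrophil markers 4 passed as higher in GLA-SE against PBS tumors, where 68.3% of the panel did. Cxcr1, Mpo, Elane and Ltf did not pass. The part of neutrophils and macrophages in the Cd14 values was not tested.

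Of the related receptor pair, Cd180 did not pass in GLA-SE against PBS tumors and Ly86 did. Cd180 had 1113, 1228, 1129 and 1083 scaled counts in PBS tumors and 1400, 1251, 942.2 and 1075 in GLA-SE tumors, which lay on either side of the PBS range (log2 fold change 0.04, standard error 0.134, edgeR adjusted p = 0.816). Ly86 (MD-1) had 1614, 1701, 1702 and 1669 in PBS tumors and 2445, 2284, 2292 and 1894 in GLA-SE tumors, without overlap. Its log2 fold change was 0.42 (standard error 0.0991, edgeR adjusted p = 0.00646), and it passed with all 12 tumors in a single fit (edgeR adjusted p = 0.0166). Cd180 lay at -0.86 and Ly86 at -0.48 relative to the panel's median log2 fold change.

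Among the adaptors, Myd88, which all Toll-like receptors but TLR3 use, rose without overlap. PBS tumors had 267.5, 286.1, 285.5 and 284.3 scaled counts (280.9 ± 8.93, SD, n = 4) and GLA-SE tumors 414.4, 412.2, 623.8 and 507.3 (489.4 ± 99.9). Every GLA-SE tumor was above every PBS tumor. The log2 fold change was 0.80 (standard error 0.159, edgeR adjusted p = 0.00279), and 0.66 without GLA-SE replicate 3, although with all 12 tumors in a single fit the adjusted p from edgeR was 0.0591. Tirap, the sorting adaptor that brings MyD88 to the membrane, had 115.9 to 136.6 scaled counts in PBS and 108.8 to 176.5 in GLA-SE tumors (log2 fold change 0.18, standard error 0.191, edgeR adjusted p = 0.421). The GLA-SE range thus enclosed the PBS range.

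Of the adaptors of the endosomal route, Ticam1 rose and Ticam2 did not pass. Ticam1 (TRIF) had 184.6, 132.8, 176.7 and 196.2 scaled counts in PBS tumors and 222.6, 223.2, 290.2 and 263.3 in GLA-SE tumors, without overlap (log2 fold change 0.53, standard error 0.179, edgeR adjusted p = 0.0263). This call was lost, with adjusted p from edgeR of 0.0564 to 0.0629, when PBS replicate 2, PBS replicate 3 or GLA-SE replicate 4 was left out. With the replicate number as a block its adjusted p from edgeR was 0.0576, and the count of genes that rose went from 6 to 5. Ticam2 (TRAM), which links TRIF to the receptor, had 512.5, 587.2, 557.9 and 559.9 in PBS tumors and 515.6, 454.8, 518.4 and 451.4 in GLA-SE tumors. Its log2 fold change was -0.19 (standard error 0.11, edgeR adjusted p = 0.147), rank 734 of 750. It was the only one of the 9 below 0 relative to the reference genes, and it was below 0 in each alternative and each fit without a tumor, down to -1.48 with panel median scaling.

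Of the 9 genes, 5 had every GLA-SE tumor above every PBS tumor (Ly96, Cd14, Ly86, Myd88 and Ticam1, exact permutation test p = 0.0286 each), where 63.6% of the 750 tested genes did so. With TMM scaling, which centers on the bulk of the panel, 1 of the 9 passed as higher (Cd14) and 3 as lower, and with the deposited counts taken without rescaling 3 passed as higher and 1 as lower. Over the 750 genes 193 passed as higher and 133 as lower with TMM, and 351 and 17 without rescaling. With DESeq2's own size factors 1 of the 9 passed as higher (Cd14) and 4 as lower, where 193 and 153 of the 750 did. With quantile normalization 0 of the 9 passed as higher and 4 as lower, where 108 and 169 of the 750 did. Cd14 did not pass with it (log2 fold change 1.57, limma adjusted p = 0.133).

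**Figure D3:**
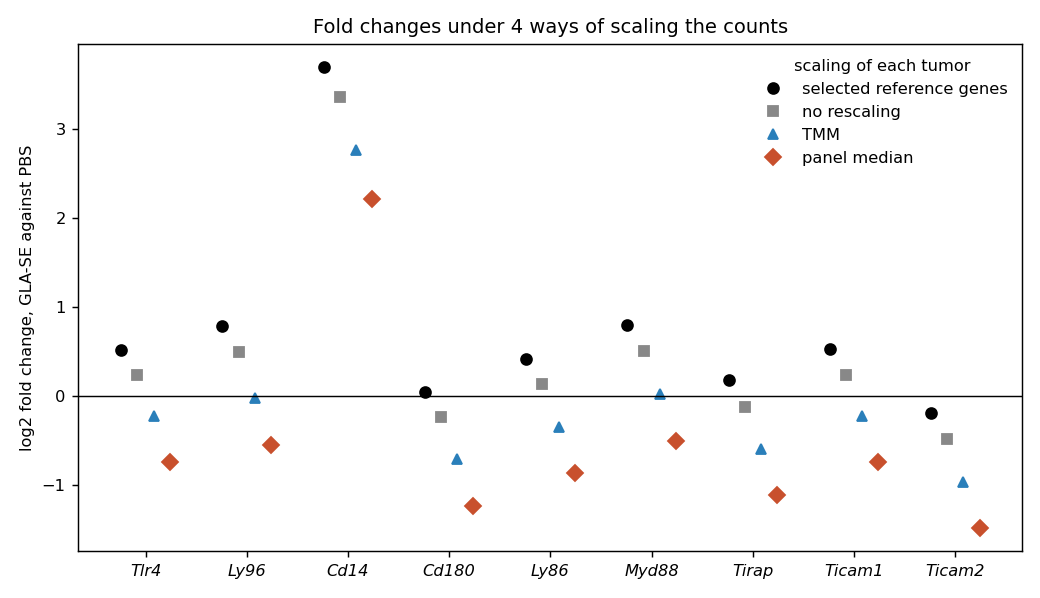
Log2 fold change of GLA-SE against PBS (4 tumors each) for the 9 genes under 4 scalings: to the selected reference genes, without rescaling, TMM, and to the panel median. Every gene shifts down in that order. Cd14 is above 0 and Ticam2 below 0 under all 4, and Cd180 and Tirap are above 0 only with the reference genes. Tlr4, Ly96, Ly86 and Ticam1 are below 0 with TMM and with the panel median, and Myd88 only with the panel median.

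The comparison of SE with PBS tumors asked what the emulsion did without the agonist. Of the 9 genes 0 passed, as did 0.0% of the 750 (edgeR with Benjamini-Hochberg adjustment, lowest adjusted p = 0.243). At an unadjusted p under 0.05, 139 of the 750 genes (18.5%) and 3 of the 9 were found, namely Ly96, Cd180 and Ly86. In these 3 every SE tumor lay above every PBS tumor on the reference scale (exact permutation test p = 0.0286). This was the case for 8.67% of the tested genes. The order depends on that scale. Before scaling, SE replicate 4 had 345 counts of Ly96, 1038 of Cd180 and 1242 of Ly86. The lowest PBS tumors had 536, 1181 and 1713. The median log2 fold change was 0.49 over the 9 genes and 0.53 over the panel.

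Cd180 had 1395, 1748, 1989 and 2113 scaled counts in SE tumors, where PBS tumors reached at most 1228 (log2 fold change 0.67, standard error 0.151, edgeR adjusted p = 0.243). Ly86 had 2213, 2342, 2301 and 2528, where PBS tumors reached at most 1702 (log2 fold change 0.49, standard error 0.0984, edgeR adjusted p = 0.243). SE replicates 1 and 2, which were above the PBS tumors for both genes, had macrophage marker sums of 2912 and 2351, at the low end of the PBS range or below it. Neither gene passed after adjustment, and the part of macrophages in their values was not tested. With DESeq2 and the same reference scale, 60 genes were called in SE against PBS, and these 3 among them, with adjusted p of 4.46e-11 for Ly86, 0.00053 for Cd180 and 0.0444 for Ly96. With DESeq2's own size factors 12 genes were called and 0 of the 9.

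On the reference scale, Tlr4, Cd14 and Myd88 in SE tumors followed the split of that group. That scale divides SE replicate 1 by 1.495 and replicate 4 by 0.4912. Before scaling, SE replicates 1 to 4 had 741, 457, 548 and 488 counts of Tlr4 and 376, 241, 349 and 326 of Myd88, without this split. Cd14 had 188, 106, 344 and 381 and kept it. For Myd88, replicates 1 and 2 had 251.4 and 251.0 scaled counts, below all PBS tumors, and replicates 3 and 4 had 435.9 and 663.6, above them all. Without SE replicate 4 the log2 fold change against PBS went from 0.58 to 0.31 for Tlr4, from 1.09 to 0.40 for Cd14 and from 0.51 to 0.15 for Myd88. Tirap had 133.7 to 143.8 in SE replicates 1 to 3 and 236.1 in replicate 4, and Ticam1 had 170.8 to 242.3. Ticam2 had 525.2 to 644.6, a log2 fold change of 0.05. The sum of 9 endothelial and fibroblast markers was 3529 to 121300 in SE tumors, highest in replicate 4, and 4099 to 9245 in PBS tumors. In SE replicate 4 the collagen genes Col3a1 and Col1a1 gave 91070 and 24700 of the 121300. The part of these cells in the SE values was not tested.

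GLA-SE against SE compares the agonist in its emulsion with the emulsion alone. The labels do not give the emulsion concentration and volume of the SE group, so that equal doses of emulsion cannot be assumed. Of the 9 genes 0 passed, against 2.13% of the 750 tested (16 genes, all higher in GLA-SE, edgeR with Benjamini-Hochberg adjustment). At an unadjusted p under 0.05 there were 2 of the 9, where 17.7% of tested genes were found. These were Cd14, higher by a log2 fold change of 2.60 (standard error 1.09, edgeR adjusted p = 0.254), by 0.90 without GLA-SE replicate 3 and by 3.30 without SE replicate 4, and Cd180, with -0.63 (standard error 0.203, edgeR adjusted p = 0.16).

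Cd180 had its highest mean in the SE group. Its mean was 1138 ± 62.6 scaled counts (SD, n = 4) in PBS, 1811 ± 316 in SE and 1167 ± 200 in GLA-SE tumors. Of the GLA-SE tumors 3 lay below all SE tumors, and replicate 1, at 1400, lay just above the lowest SE tumor, at 1395 (exact permutation test p = 0.0571). The log2 fold change of GLA-SE against SE was between -0.74 and -0.54 when single tumors were dropped, and -0.46 without GLA-SE replicate 3 and SE replicate 4 together. Cd180 passed as lower with all 12 tumors in a single fit (edgeR adjusted p = 0.0392), with DESeq2 on the reference scale (adjusted p = 0.0133) and with DESeq2's own size factors (log2 fold change -1.12, adjusted p = 0.00685). Ly86, its partner, had means of 2346 ± 133 in SE and 2229 ± 235 in GLA-SE tumors, with log2 fold change -0.07 (standard error 0.147, edgeR adjusted p = 0.877).

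For Ticam2 all 4 GLA-SE tumors (451.4 to 518.4 scaled counts) lay below all 4 SE tumors (525.2 to 644.6), with exact permutation test p = 0.0286. On this scale 0.267% of the 750 genes, or 2 genes, were ordered this way. Before scaling the Ticam2 counts overlapped (438 to 535 in GLA-SE and 258 to 866 in SE tumors). The log2 fold change was -0.24 (standard error 0.175, edgeR adjusted p = 0.571). Tlr4 itself had means of 662.3 ± 240 in SE and 632.6 ± 105 in GLA-SE tumors, and its log2 fold change of -0.07 was 0.20 without SE replicate 4. Ly96 had 0.41, Myd88 0.29, Ticam1 0.22 and Tirap -0.19, and their groups overlapped. The 3 comparisons share tumors pairwise, so that none of them is independent of the other two.

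Ratios of genes counted in the same tumor do not depend on how tumors are scaled, although probes differ in efficiency, so that a ratio has meaning only between tumors. Of 6 ratios in 3 comparisons, 2 differed without overlap, and neither passed after Benjamini-Hochberg adjustment over the 18 tests. The log2 ratio of Cd180 to Tlr4 was 1.36 ± 0.18 (SD, n = 4) in PBS, 1.50 ± 0.32 in SE and 0.88 ± 0.21 in GLA-SE tumors. In GLA-SE tumors it was 1.13, 0.79, 0.97 and 0.65, and the lowest PBS tumor had 1.15. The difference of -0.48 (exact permutation test p = 0.0286, adjusted 0.257) was -0.56 to -0.40 when single tumors were dropped, and against SE tumors it was -0.62 (exact permutation test p = 0.0571). The log2 ratio of Cd14 to Tlr4 was higher by 2.22 in GLA-SE than in PBS tumors (exact permutation test p = 0.0286, adjusted 0.257), and by 1.22 without GLA-SE replicate 3. The ratio of Ly86 to Ly96, the partner proteins of the CD180 and TLR4 receptors, was lower by a difference of -0.34 in GLA-SE than in PBS tumors, with overlap (exact permutation test p = 0.0857).

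**Figure D4:**
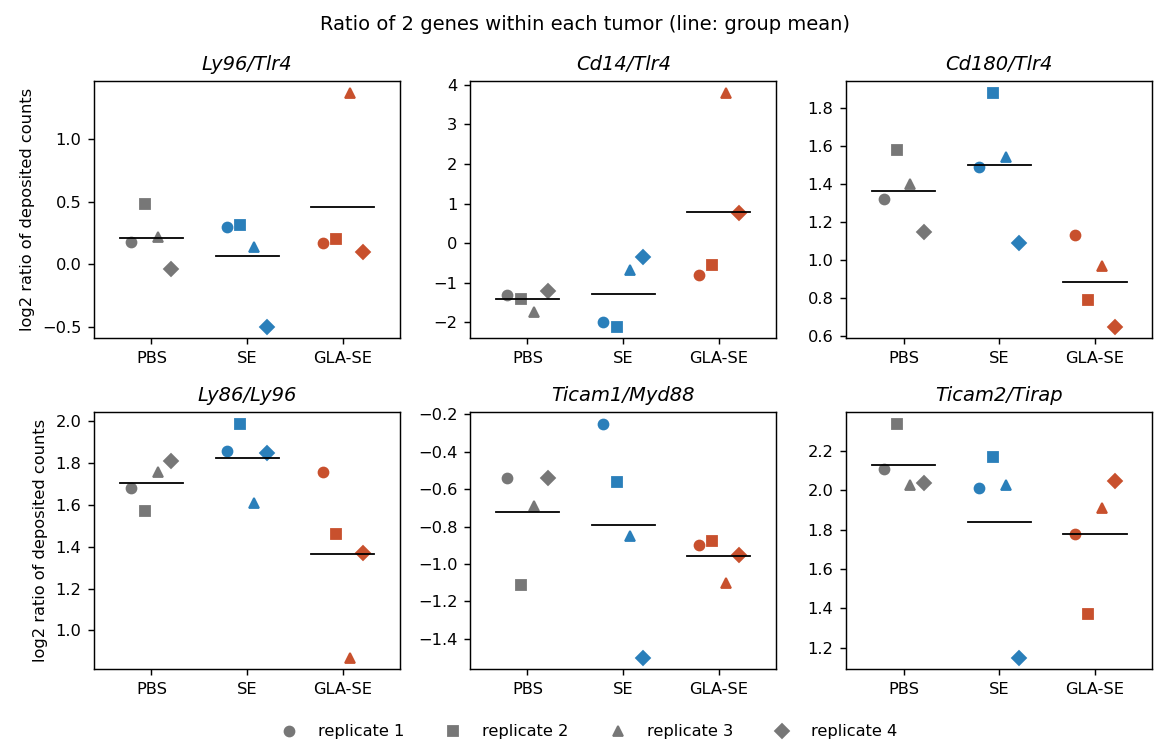
Log2 ratio of the deposited counts of 2 genes in each tumor, for 6 pairs of genes, with PBS in grey, SE in blue and GLA-SE in orange; the line is the mean of 4 tumors. All GLA-SE tumors lie below all PBS tumors for Cd180/Tlr4 and above them for Cd14/Tlr4, and the groups overlap in the other 4 pairs.

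Across the 12 tumors, the genes of the panel whose pattern was most like that of Cd14 were Il6, Tnfaip3 and Sbno2 (Pearson's r on log2 scaled counts of 0.99, 0.98 and 0.98, and 0.95, 0.95 and 0.97 without the pair of tumors farthest from the median of Cd14). For Ly96 they were Isg15, Cd48 and Hif1a (0.95 each), and for Tlr4 they were Pdgfrb, Il6ra and Irak4 (0.92 each). With the same omission, by the median of each gene, the values were 0.91, 0.90 and 0.90 for Ly96 and 0.80, 0.81 and 0.82 for Tlr4. Cd180 had no match as close over all 12 tumors. Its nearest were Cd3eap (0.80), Dusp6 (0.79) and Smad2 (0.77), and these fell to 0.44, 0.62 and 0.55 without SE replicates 3 and 4. Among the other genes examined here, Cd14 was nearest to Myd88 (0.89) and Ly96 (0.88), whereas Tlr4 correlated with Ly96, its binding partner, at 0.39 and with Ticam2 at -0.53. With the mean of each group removed, Tlr4 and Ly96 had -0.13 and Tlr4 and Cd180 had 0.67. The low values of Tlr4 with Ly96 depend on GLA-SE replicate 3 and do not describe the other tumors. That tumor had the lowest Tlr4 (482.5 scaled counts) and the highest Ly96 (1250) of its group. Its log2 ratio of Ly96 to Tlr4 was 1.37, against 0.17, 0.20 and 0.10 in the other GLA-SE tumors. These values describe 12 tumors in 3 groups that share reference genes and cell makeup, and are not tests.

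The remaining steps of the pathway were followed through gene lists, described by counts. Each count of GLA-SE against PBS tumors stands beside a panel in which 68.3% of the tested genes rose, with a median log2 fold change of 0.89, or 64.4% and 0.75 without GLA-SE replicate 3. Lbp, the serum protein that loads CD14, had a log2 fold change of 1.81 (edgeR adjusted p = 0.00256) in GLA-SE against PBS tumors. In SE tumors Lbp had 61.52, 55.19, 637.0 and 1339 scaled counts, which followed the split of that group. Its log2 fold change was 2.38 in SE against PBS tumors (edgeR adjusted p = 0.243) and 1.32 without SE replicate 4, and it was -0.57 in GLA-SE against SE tumors (edgeR adjusted p = 0.825) and 0.49 without SE replicate 4. Of 11 genes of the MyD88 branch downstream of the adaptors, 9 rose and 0 fell, where 68.3% of the panel rose, and their median log2 fold change of 0.45 was below the panel's 0.89. Irak2, a kinase of the complex built on MyD88, led with 1.74 (edgeR adjusted p = 0.00161), and Tab1 and Chuk did not pass. Of 5 genes of the TRIF branch 3 rose, near the panel's share of 68.3%, with a median of 0.55 against 0.89 over the panel. These were Ikbke by 1.67, Tank by 0.84 and Tbk1 by 0.55, whereas Traf3 and Irf3 did not pass. With panel median scaling 0 genes of these branches passed as higher, and 10 of 11 and 4 of 5 passed as lower. On that scale 61 of the 750 tested genes passed as higher and 307 as lower.

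Of 8 restraints of the pathway 8 rose relative to the reference genes, where 68.3% of the panel did, with a median of 1.43. With panel median scaling 0 of them passed as higher and 3 as lower, where 61 and 307 of the 750 tested genes did. Il1rl1 (ST2, listed here only for a reported role in sequestering MyD88 and TIRAP) had 2.01 and Socs1 1.55. Tnfaip3 (a ubiquitin-editing enzyme that limits NF-κB) had 1.85 and Nfkbia (IκBα) 1.49. The protein of Tnfaip3 is also named A20 but is unrelated to the cell line. GLA-SE replicate 3 was the highest tumor for Tnfaip3, at 2694 scaled counts where the other GLA-SE tumors had 625.4, 713.4 and 812.4, and for Nfkbia, at 4412 where the others had 1128, 1327 and 1535. Without it the log2 fold changes were 1.09 for Tnfaip3 and 0.83 for Nfkbia, and 8 of 8 restraints still passed, with a median of 0.94.

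Of 6 NF-κB outputs 5 rose, where 68.3% of the panel did, with a median of 4.01. With panel median scaling 4 of them passed as higher, where 61 of the 750 tested genes passed as higher and 307 as lower. The inflammatory cytokine Il1b had 416.3, 1245, 11650 and 2369 scaled counts in GLA-SE tumors, Ptgs2, the inducible cyclooxygenase, had 140.7, 285.5, 3893 and 411.8, and Il6 had 22.16, 49.84, 660.7 and 113.9. Cxcl1, a chemokine for neutrophils, had 29.87, 53.99, 719.4 and 233.8, so that replicate 3 was the highest tumor for all 4 genes. Their log2 fold changes rested in large part on that tumor, and went from 5.18 to 3.64 for Il1b, from 4.27 to 2.19 for Ptgs2, from 4.07 to 2.30 for Il6 and from 3.95 to 2.66 for Cxcl1 when it was left out. Without it 4 of the 6 passed, with a median of 2.24, and Il12b, the subunit that interleukins 12 and 23 share, went from 2.64 to 0.47 and was no longer called (edgeR adjusted p = 0.2). In PBS tumors Il6 and Cxcl1 had mean scaled counts of 12.54 and 16.81, near the lowest counts. The size of their fold changes, and of the median of 4.01 that lies between them, depends on these low values. Tnf had a log2 fold change of 0.96 and did not pass (edgeR adjusted p = 0.0591). Of 6 outputs of IRF3 and interferon 5 rose, where 68.3% of the panel did, with a median of 1.86, and with panel median scaling 3 passed as higher and 1 as lower. Ccl5 had 3.31, Isg15 2.18, Cxcl10 2.04 and Irf7 1.68. Without GLA-SE replicate 3 the same number passed, with a median of 1.62, and Ccl5 went to 2.16. Ifnb1 itself stayed near the lowest counts, with group means of 10.76 in PBS, 11.7 in SE and 11.35 in GLA-SE tumors, and no change was detectable at these counts.

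The other Toll-like receptors on the panel gave a frame for Tlr4. Of 8, 7 rose in GLA-SE against PBS tumors relative to the reference genes, where 68.3% of the panel did, and their median of 0.85 was close to the panel's 0.89. Tlr3 did not pass (log2 fold change 0.64, edgeR adjusted p = 0.0537), and it passed without GLA-SE replicate 3 (0.72, edgeR adjusted p = 0.0474). Tlr2, which recognises bacterial lipoproteins, had 1.82, and Tlr8 had 1.59, Tlr7 1.30 and Tlr5 1.07, each above the 0.51 of Tlr4, whereas Tlr9 had 0.41 and Tlr6 0.36. Tlr5 averaged 19.06 scaled counts in PBS tumors, near the lowest counts. The differences in fold change between these receptors were not tested. With panel median scaling 0 of the 8 passed as higher and 3 as lower, where 61 and 307 of the 750 tested genes did. Macrophages carry many of these receptors. Relative to the reference genes, 8 of 8 monocyte and macrophage markers were higher, with a median of 1.58, and of 8 B-cell markers 0 were higher and 2 lower (Ms4a1 with -0.45 and Cd79b with -0.41), where 68.3% of the panel were higher and 0.4% lower. With panel median scaling 1 macrophage marker was higher and 0 lower (median 0.29), and all 8 B-cell markers were lower (median -1.34). The part of these cells in the values of the receptors was not tested. In SE against PBS tumors 0 genes passed in each of these lists, as in the whole panel, but the fold changes were not all small. The median was 0.68 for the other Toll-like receptors, 1.30 for macrophage markers and -0.05 for B-cell markers, against 0.53 over the panel. Without SE replicate 4 these medians were 0.13, 0.62 and 0.00, against 0.21. In GLA-SE against SE tumors only Cxcl10 passed (log2 fold change 2.08, edgeR adjusted p = 0.00974). Without SE replicate 4, Ikbke, Socs1, Tlr1 and the monocyte marker Ccr2 also passed in the latter comparison (log2 fold change 1.54, 1.25, 0.64 and 1.61, edgeR adjusted p of 0.0326 to 0.0498), where 13.5% of the panel then passed as higher. With all tumors these genes had log2 fold changes of 0.94, 1.27, 0.59 and 0.96 and did not pass (edgeR adjusted p of 0.0632 to 0.407).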

How the data were processed

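The RNA of 12 tumors from separate mice, 4 each injected with PBS, GLA-SE or SE, was counted, and groups were taken from the sample titles. The values were deposited as counts, which are probe reads per gene and tumor in a single table. Although the methods name nSolver for normalization, these values were treated as raw, being whole numbers with totals of 810260 to 1612415 and reference genes that differ between tumors. Symbols were used as deposited, and no reads were aligned.

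Reference genes were selected by the geNorm procedure over all 12 tumors (17 of 20 kept), and each tumor was scaled to their geometric mean. Pairs of groups were compared with edgeR 4.0.16 (quasi-likelihood test, R 4.3.3) without a low-count filter or covariates, with Benjamini-Hochberg adjustment over 750 genes at 0.05, and with two-sided exact permutation tests on log2(scaled count + 1) over the 70 assignments. The fits were tested on simulated data. Alternatives were other reference genes, scaling by panel median, TMM, quantiles or not at all, a filter of 20 counts, a single fit of all 12 tumors, a replicate block, limma 3.58.1 (pseudocounts 10 and 1), DESeq2 1.42.0, Benjamini-Yekutieli adjustment and the omission of single tumors. The omission of GLA-SE replicate 3 together with SE replicate 4, and of either from the gene lists, was chosen after seeing the data. Replicate numbers do not pair the tumors (correlations of same-numbered deviations -0.248 to 0.184).

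Named were the 9 genes, at most 4 called genes per pathway list by size of change in GLA-SE against PBS, marker genes for the tissue, and the 3 genes most correlated with Tlr4, Cd14, Ly96 and Cd180 among those with a mean scaled count of at least 20. Tab1, Chuk, Traf3, Irf3, Tnf, Ifnb1, Il12b, Ccr2, Tlr1, Tlr3, Tlr6 and Tlr9 are exceptions, picked once their values had been seen. The 9 genes and all lists were chosen with earlier results of these data known. Promoters are those of RefSeq (GRCm38.p6). Plots used matplotlib 3.10.9 and tests scipy 1.17.1, under Python 3.11.15.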

Additional observations from a re-analysis of the deposited data

Results flagged for a closer look

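For each of the 9 genes and 3 groups, Dixon's ratio was used to look for 1 tumor set apart from the rest of its group. Of 27 such groups 3 had one, where chance flags about 1 in 20 groups, or 1.35 of 27. Cd14 had 6698 reference-scaled counts in GLA-SE replicate 3 and 367.2 to 1161 in the other GLA-SE tumors. Tirap had 236.1 in SE replicate 4 and 133.7 to 143.8 in the other SE tumors. Myd88 had 267.5 in PBS replicate 1 and 284.3 to 286.1 in the other PBS tumors.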

How the results depend on the processing

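Of the 9 genes, the number called in GLA-SE against PBS was 6, and 3 with all 12 tumors in one fit (Ly96, Cd14 and Ly86) or with Benjamini-Yekutieli adjustment (Ly96, Ly86 and Myd88), where the panel had 253 and 304 calls in place of 515. It was 5 to 6 with each tumor left out. With the replicate number as a block it was 5, with 440 calls over the panel, and the block changed no other call of the 9 genes, although in GLA-SE against SE it left 0 of the panel's 16 calls. In SE against PBS 3 were called by DESeq2 with the reference size factors and 0 with each tumor left out. In GLA-SE against SE, 1 was called without rescaling (Cd14, log2 fold change 3.00), 1 with all 12 tumors in one fit (Cd180, lower), 2 by DESeq2 with the reference size factors (Cd14 higher, Cd180 lower), 1 by DESeq2 with its own size factors (Cd180, lower) and 0 with each tumor left out, while the panel's 16 calls became 89, 70, 109 and 80 under those settings, 102 without SE replicate 4, 68 without that tumor and GLA-SE replicate 3, 4 without GLA-SE replicate 2, GLA-SE replicate 4 or SE replicate 3, 5 without SE replicate 1, 7 without SE replicate 2, 3 with TMM, and 0 with panel median scaling, quantile normalization or Benjamini-Yekutieli adjustment. The scale of each tumor set most directions, and the panel's 512 higher and 3 lower calls in GLA-SE against PBS became 61 and 307 with panel median scaling, 193 and 133 with TMM, 193 and 153 with DESeq2's own size factors, 108 and 169 with quantile normalization, and 351 and 17 without rescaling, the panel's median log2 fold change being 0.89, -0.40, 0.13, 0.05, -0.06 and 0.61. Log2 fold changes of GLA-SE against PBS turned below 0 for Tlr4, Ly96, Cd180, Ly86, Tirap and Ticam1 with panel median scaling (-0.74, -0.55, -1.23, -0.87, -1.11 and -0.74), TMM (-0.22, -0.02, -0.71, -0.35, -0.59 and -0.23), quantile normalization (-0.53, -0.19, -0.81, -0.40, -1.06 and -0.69) and DESeq2's own size factors (-0.31, -0.09, -0.79, -0.43, -0.67 and -0.31), and for Myd88 with all of these but TMM (-0.51, -0.37 and -0.06). Cd180 was also below 0 without rescaling (-0.24), with all reference genes (-0.04) and without GLA-SE replicate 1 (-0.06), and Tirap without rescaling (-0.12). In SE against PBS, Myd88, Tirap, Ticam1 and Ticam2 turned below 0 with panel median scaling (-0.14, -0.09, -0.08 and -0.25), TMM (-0.03, -0.04, -0.05 and -0.24), no rescaling (-0.05, -0.08, -0.07 and -0.28), quantile normalization (-0.12, -0.27, -0.30 and -0.52) and DESeq2's own size factors (-0.04, -0.04, -0.05 and -0.24), Ly96 with the panel median (-0.04), no rescaling (-0.01) and quantile normalization (-0.12), and Ticam2 without SE replicate 2 (-0.01, where single omissions gave -0.01 to 0.09). In GLA-SE against SE, Ly96 and Ticam1 turned below 0 with panel median scaling (-0.52 and -0.66), TMM (-0.05 and -0.22), quantile normalization (-0.08 and -0.36) and DESeq2's own size factors (-0.15 and -0.31), and Myd88 with the panel median (-0.37), quantile normalization (-0.24) and DESeq2's own size factors (-0.07). Tlr4 turned above 0 without rescaling (0.15), without GLA-SE replicate 3 (0.04), without SE replicate 4 (0.20) and without both (0.31), Tirap without SE replicate 4 (0.03) and without both (0.05), Ly86 without rescaling (0.01), and Tlr4 and Ly86 came to 0.00 each with reference genes selected within the comparison. Apart from scaling, the cause of these changes was not tested. Cd14 lost its call in GLA-SE against PBS with quantile normalization (1.57, limma adjusted p = 0.133) and Benjamini-Yekutieli adjustment (adjusted p = 0.0558), and kept its direction under every alternative in all 3 comparisons, as did Ticam2 in GLA-SE against PBS and against SE, Cd180 in GLA-SE against SE, and Tlr4, Cd180, Ly86 and Cd14 in SE against PBS. In the pathway lists, panel median scaling turned 1 higher call for Lbp into 0, 8 higher calls of the restraints into 0 higher and 3 lower, 7 higher calls of other Toll-like receptors into 0 higher and 3 lower, and in GLA-SE against SE 1 higher call of the interferon outputs into 0. Each group held 4 tumors, and counts of the 9 genes were high enough that tumor spread and not counting limited precision.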
